A study of Mus musculus with 6 samples.

Results

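The general splicing machinery in mouse thymus samples was followed here through 164 probe sets for 54 genes. They are all probe sets of a 45037-probe-set mouse array (controls left out) whose platform annotation gives a single gene symbol that starts with Hnrnp, Srsf, Sf3a, Sf3b or Snrp, or is U2af1, U2af2, Khdrbs1, Ptbp1, Ptbp2, Tra2a or Tra2b. The older prefixes Hnrp and Sfrs were searched as well. A further 16 probe sets carry several symbols, a splicing factor's among them, and are described apart. The cells were thymocytes, sorted by flow cytometry per the sample descriptions as double negative, that is, without the CD4 and CD8 coreceptors, whereas titles and source names say whole thymus. Of the 6 arrays, 3 are labelled wild type and 3 are labelled as double knockouts of Egr1 and Egr3, zinc finger transcription factors induced by receptor signals. Neither group is described as treated. Each array title gives its group and a number within it, and the sources used here do not give strain, sex, age or the form of the knockout alleles.

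Pre-mRNA splicing is carried out by the spliceosome, which is built on each intron from small nuclear ribonucleoproteins (snRNPs). The U1 snRNP reads the 5' splice site, U2AF reads the 3' splice site, and U2 snRNP with its SF3A and SF3B complexes takes hold of the branch point. SR proteins mostly favour the use of exons they bind, hnRNP proteins coat nascent RNA and often oppose it, and the balance between them sets alternative splicing, which in T cells shapes transcripts such as that of the phosphatase CD45. Dividing lymphocytes are known to raise many of these factors.

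All 6 arrays had the same trimmed mean intensity, and their medians lay between 19.9 and 23.1. Of the 2 targeted genes, the 1 Egr1 probe set gave 508, 509 and 455 in wild type and 1757, 1696 and 1221 in the others, against the labels. Of the 2 Egr3 probe sets, 1 gave 92.2, 83.1 and 30.8 against 34.4, 45.8 and 32.9, a change of -0.59 (SE 0.32) in the labelled direction that did not pass, and the other had -0.07 (SE 0.32). A probe set outside a deleted part would check nothing. Directions below are therefore those of the arrays labelled double knockout against the arrays labelled wild type. Wild type array 3 stood apart in other cells' transcripts: 10 granulocyte markers summed to 322 there, to 11456 and 24787 on the other wild type arrays and to between 18430.2 and 27685 on the labelled double knockouts, and 3 erythroid markers summed to 3825 there against 48.0 to 453 on the other 5. The female transcript Xist read between 1439 and 6015 on all 6 arrays, while the male transcript Eif2s3y read 476 on wild type array 1, between 186 and 265 on the labelled double knockouts, and 13.2 and 0.625 on wild type arrays 2 and 3. Whether each array holds RNA of 1 animal is thus not settled, and p-values measure only the spread between these arrays. The ratio of the 3' to the 5' actin control, a sign of RNA integrity and amplification length, was 8.94 on wild type array 1 and between 4.98 and 6.35 on the other arrays. The same ratio for Gapdh was 10.1 on wild type array 1, 8.56 on labelled double knockout array 2, 7.36 on wild type array 3 and between 4.83 and 5.27 on the remaining arrays.

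Splicing factor transcripts sat low in the arrays labelled double knockout across most of the list. Of the 164 probe sets, 148 were bright enough to test, and 118 of these had a lower mean in the labelled double knockouts, with a median log2 change of -0.34 against 0.00253 over all 27022 probe sets tested. Past an adjusted p of 0.05 (limma, Benjamini-Hochberg over the whole array), 10 probe sets of 7 genes were lower and none was higher. On the whole array 2.11% of probe sets tested were called lower and 2.91% higher. At an unadjusted p under 0.05, 39 member probe sets were lower and 6 higher, where the array as a whole gave 8.90% lower and 9.86% higher. In 46 of the 148 (31.1%) every labelled double knockout array read below every wild type array, and in 4 (2.70%) every one read above, against 11.6% and 12.3% of all probe sets tested.

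**Figure D1:**
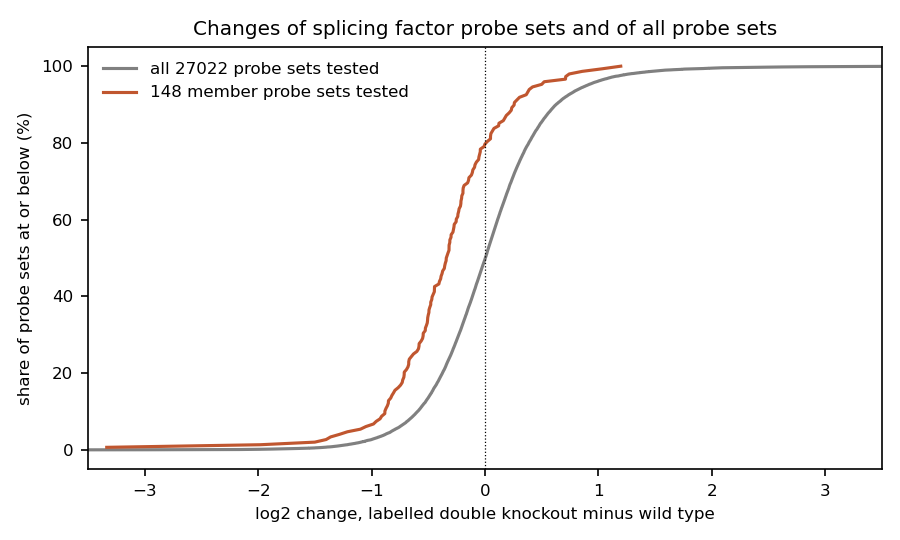
Cumulative share of probe sets (y axis, percent) at or below a given log2 change, labelled double knockout minus wild type (x axis), for the 148 splicing factor probe sets tested (orange) and all 27022 tested (grey). The orange curve lies to the left, with a median of -0.34 against 0.00253.

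The list is bright, and the calls were set against other bright probe sets as well, a comparison added after the values were seen. The median splicing factor sat between the 96.1 and 97.7 percentile of each array. Among the 2444 probe sets with a mean log2 value of 10 or more, refitted alone, 6.55% were called lower and 5.11% higher, and 20.5% had every labelled double knockout array below every wild type array. The 67 bright splicing factor probe sets gave 8 lower and 0 higher, and 22 without overlap below (32.8%). Their median change was -0.33, against -0.04 for all bright probe sets. Of the 67, 82.1% were lower, against 53.0% of all bright probe sets.

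The lower level held on every array rather than on a single one. Measured as the median deviation of the 148 probe sets from their own means, the wild type arrays lay at 0.11, 0.19 and 0.16 (log2) and the labelled double knockouts at -0.16, -0.13 and -0.19. The groups did not overlap in any of the 5 classes. The gap was narrowest in the small class of U2AF, KHDRBS1 and PTBP, where a labelled double knockout array reached 0.02 and the lowest wild type array stood at 0.04.

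**Figure D2:**
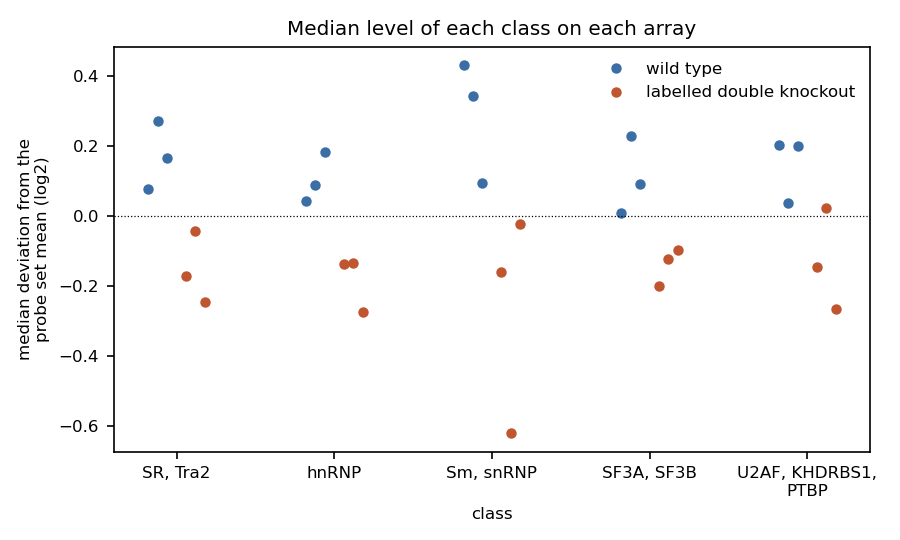
Median deviation (y axis, log2) of the tested probe sets of each class (x axis) from their own mean over 6 arrays, 1 point for each array, in the order of replicates 1 to 3. Wild type points (blue) lie above 0 in each class, and labelled double knockout points (orange) lie below 0 except 1 point of the last class at 0.02.

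With 1 value for each gene, its brightest probe set, 52 genes were tested and 41 were lower. Snrpa1, Srsf3, Srsf2 and Sf3b4 passed, all lower, and none passed upward (3.06% of the 13187 genes tested were called lower and 4.41% higher). With the median of a gene's tested probe sets in place of the brightest, 4 genes again passed lower, of which 2, Snrpa1 and Srsf3, were called by both rules. Srsf2 (limma adjusted p = 0.116) and Sf3b4 (0.134) were then lost, while Khdrbs1 (0.00303) and Srsf6 (0.0422) passed. The Khdrbs1 change under this rule, -1.40, moves with 1 probe set at -3.33. Its other tested probe sets lay between -0.41 and 0.30, so this call is not a fall across the gene. Counts depended on wild type array 3: without it 24 probe sets of 17 genes were lower and 4 probe sets of 3 genes higher, and all 10 calls of the full set were among them. Calls among the other splicing genes described below also rose in that fit, so the rise was not confined to this list. The share of all probe sets called in that fit is not given here. Without labelled double knockout array 1 only 2 probe sets passed, and without any 1 of the other 4 arrays between 4 and 5 did. The median change stayed between -0.37 and -0.31 in these 6 fits.

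**Figure D3:**
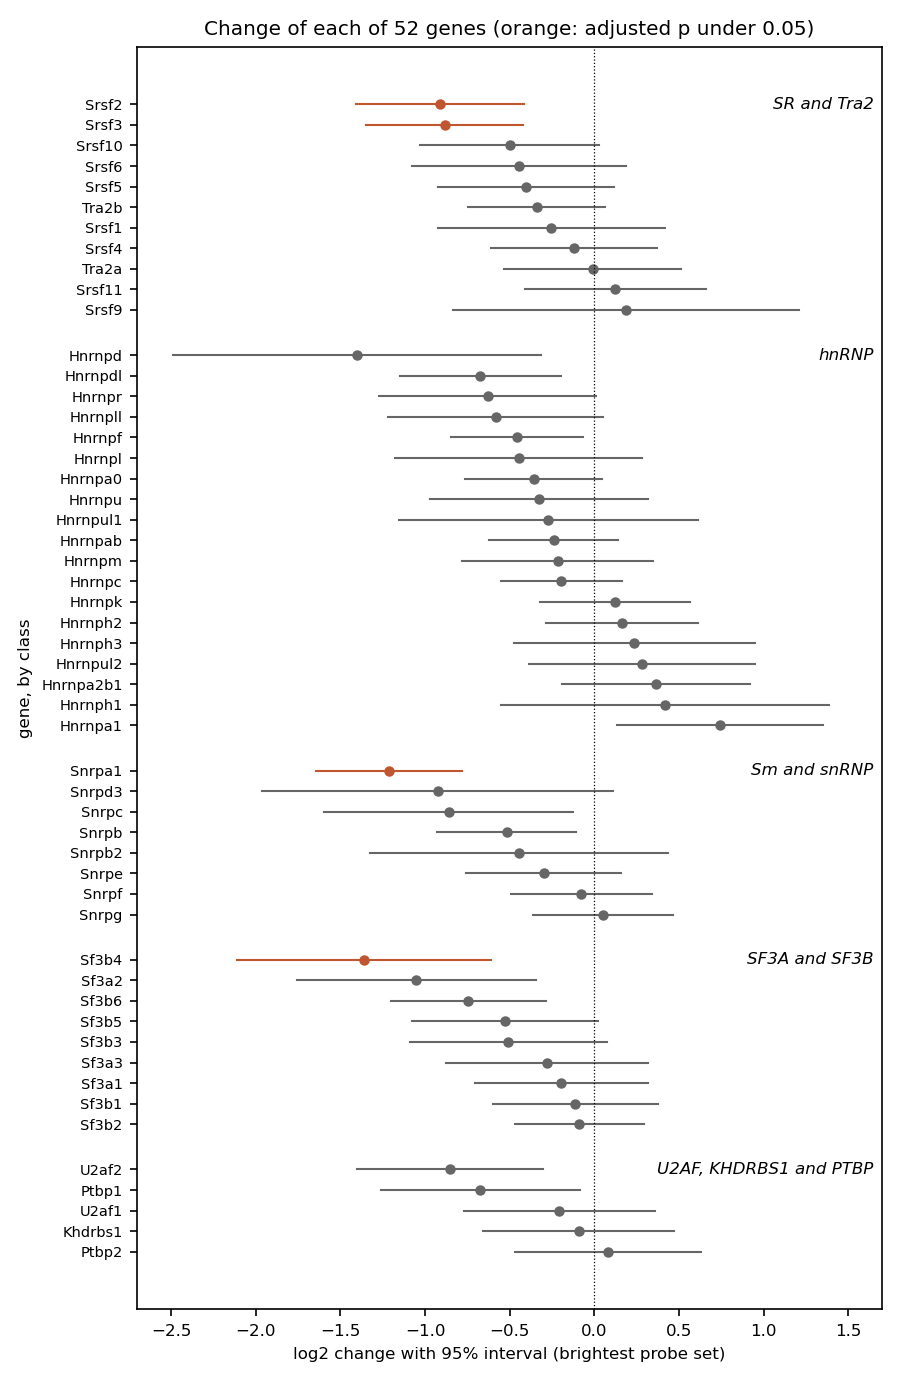
Log2 change (x axis) of each of the 52 genes tested, on its brightest probe set, with its 95% interval, grouped by class on the y axis. The 4 genes in orange passed an adjusted p of 0.05, and 41 of 52 points lie left of 0.

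Promoter sequences are shown for the 3 genes called on their brightest probe set for which RefSeq gives an entry, to place their upstream regions side by side. They are the 250 bases before the annotated start, 5' to 3', from RefSeq on GRCm38.p6, and capitals mark the CCAAT box (CCAAT or its reverse ATTGG) and the GC box (GGGCGG or CCGCCC).
Srsf3, chr17:29032410-29032659 on the plus strand: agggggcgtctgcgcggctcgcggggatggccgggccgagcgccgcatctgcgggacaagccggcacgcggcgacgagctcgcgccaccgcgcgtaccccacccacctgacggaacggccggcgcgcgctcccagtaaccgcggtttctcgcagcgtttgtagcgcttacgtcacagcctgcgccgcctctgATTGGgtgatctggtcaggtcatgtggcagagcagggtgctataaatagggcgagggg
Snrpa1, chr7:66060086-66060335 on the plus strand: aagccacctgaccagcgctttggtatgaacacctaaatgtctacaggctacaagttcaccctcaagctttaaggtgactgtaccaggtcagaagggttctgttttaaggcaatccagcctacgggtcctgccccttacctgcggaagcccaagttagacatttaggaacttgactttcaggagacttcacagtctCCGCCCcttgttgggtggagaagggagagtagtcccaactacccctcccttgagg
Srsf2, chr11:116853095-116853344 on the minus strand: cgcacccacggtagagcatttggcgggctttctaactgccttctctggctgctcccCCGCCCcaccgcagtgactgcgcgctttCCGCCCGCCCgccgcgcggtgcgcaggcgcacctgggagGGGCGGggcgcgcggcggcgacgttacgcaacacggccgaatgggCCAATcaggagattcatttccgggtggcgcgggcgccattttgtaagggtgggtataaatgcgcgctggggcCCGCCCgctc
Srsf3 holds 1 CCAAT box and no GC box, Snrpa1 holds 1 GC box and no CCAAT box, and Srsf2 holds 1 CCAAT box and 5 GC boxes, of which 2 overlap.

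Over the 64 promoters of the 47 genes of the list with an entry, the CCAAT letters were found in 46.9%, against 33.8% of all 32851 promoters and 35.0% of those of genes tested on the array. The GC box stood in 67.2%, against 32.7% and 53.9%. The ETS core CCGGAAG (reverse CTTCCGG) stood in 28.1%, against 6.91% and 12.4%, among them the promoters of Sf3a1, Sf3a2, Sf3a3, Sf3b2, Sf3b3 and Sf3b6. The E-box CACGTG, the letters that MYC and MAX bind, was found in 4.69%, in Hnrnpd, Hnrnpf and Ptbp1, against 6.02% and 7.88%. The letters GTGGGCG (reverse CGCCCAC), part of the site EGR proteins bind, were found in 12.5%, against 7.02% and 11.6%, and in none of the 3 promoters printed. These 5 motifs are those reported of 10 looked at, both strands were searched, and a match is not a bound site.

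SR proteins carry RNA recognition motifs and a tail rich in arginine and serine, and their phosphorylation governs where they act. Of 40 tested probe sets of SR and Tra2 genes 32 were lower and 3 passed, all lower (7.5%, against 2.11% of all probe sets tested). In 17 (42.5%) every labelled double knockout array lay below every wild type array, against 11.6% of all probe sets tested. Srsf3, the smallest SR protein and a factor in both splicing and mRNA export, read 3488, 2331 and 2912 in wild type and 1466.5, 1653.5 and 1596 in the labelled double knockouts on its brightest probe set. Every labelled double knockout array was lower, and the gene fell by 0.88 on the log2 scale (SE 0.21, limma adjusted p = 0.0353), from 2910.2 ± 579 to 1572 ± 95.8 (mean ± SD of the 3 arrays of each group). This call held without wild type array 3 and was lost in each of the other 5 fits on 5 arrays, with an adjusted p as high as 0.198.

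Srsf2, which binds exonic enhancers and also acts in transcription, read 1218, 1371 and 1436 in wild type and 612, 729.8 and 812 in the others, with no overlap. It fell by 0.91 (SE 0.23, adjusted p = 0.0408). Its 3 dimmer probe sets had changes of -0.77, -0.56 and -0.53, in the same direction, and none passed. Of the 15 alternative settings in which it was measured, 8 kept the call, which was lost in each fit that dropped an array other than wild type array 3, with an adjusted p as high as 0.242.

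The remaining SR genes did not pass. Srsf10, an SR-like protein that represses splicing when dephosphorylated, had 4 probe sets between -0.96 and -0.30, and the first of these read 249.8, 317 and 279.9 against 136, 172 and 113.5 and missed the threshold narrowly (adjusted p = 0.0501). Srsf6 had 4 probe sets between -0.83 and -0.44, none of which passed. Srsf1, the founding member of the family, with the brightest SR probe set, read 5613, 7327 and 11386 against 7273, 9295 and 4230.1, and its change of -0.25 (95% interval -0.92 to 0.42) lay within the spread. Srsf9 read 1469.6, 1904 and 5253 in wild type and 3552, 4390.1 and 1451 in the labelled double knockouts, so that wild type array 3 sided with labelled double knockout arrays 1 and 2, and the remaining arrays were low. Its change of 0.19 (SE 0.47) lay within the spread. Tra2b and Tra2a, SR-like activators of exon inclusion, had changes of -0.34 (SE 0.18) and -0.01 (SE 0.24) on their brightest probe sets. Srsf4, Srsf5 and Srsf11 had -0.12, -0.40 and 0.12, and Srsf12 was too dim to test.

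Among the Sm and snRNP genes, 13 of 14 tested probe sets were lower and 3 passed (21.4%, against 2.11% of all probe sets tested called lower). The 3 that passed were the 3 probe sets of Snrpa1. It encodes a protein of the U2 snRNP that binds U2 small nuclear RNA together with the product of Snrpb2. Its brightest probe set read 3942, 3547 and 3521 in wild type and 1536, 1770.2 and 1485 in the labelled double knockouts, with a wide gap between the groups. Snrpa1 fell by 1.21 (SE 0.20, adjusted p = 0.00517), from 3669.9 ± 236 to 1597 ± 152. The other probe sets fell by 1.28 (SE 0.22, adjusted p = 0.00673) and 1.10 (SE 0.23, adjusted p = 0.0197). Of 17 alternative settings, 16 kept the call of the brightest probe set, and leaving out labelled double knockout array 1 lost it (adjusted p = 0.0551).

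The remaining Sm and snRNP genes did not pass. Sm proteins form the ring that every spliceosomal snRNP except U6 carries. Snrpb, a ring subunit, read 6855, 5954 and 7084 against 4643, 4146 and 5309.6 without overlap, with a change of -0.52 (SE 0.19, adjusted p = 0.153). Snrpd3, another ring subunit, read 3798.5, 4555 and 1081 in wild type and 1507, 939 and 1975 in the others, and here wild type array 3 lay among the labelled double knockouts. Snrpc, a U1 protein, gave 1241, 751 and 598 against 465, 304 and 651, with a change of -0.86 (SE 0.34). Without wild type array 3 both passed, Snrpd3 at -1.58 (SE 0.29, adjusted p = 0.00537) and Snrpc at -1.10 (SE 0.32, adjusted p = 0.0484). Neither passed in any other fit that left out 1 array. The ring subunits Snrpe, Snrpf and Snrpg had some of the brightest probe sets of the list, with changes of -0.30, -0.08 and 0.05, and Snrpg read 11409.9, 9945 and 15061 against 12654, 14384 and 10858 with an interval from -0.36 to 0.46. A dimmer Snrpg probe set had -0.69 (SE 0.31). Snrpb2, the partner of Snrpa1, had -0.45 (SE 0.40), and the single Snrpn probe set was too dim to test.

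All 9 genes of the SF3A and SF3B complexes were lower on their brightest probe set, with changes between -1.36 and -0.09, though Sf3b2 stood at 0.0053 under quantile normalization. Of 27 tested probe sets of the class 1 passed, lower (3.70%, near the 2.11% of all probe sets tested). Sf3b4, an RNA-binding subunit that helps tie U2 snRNP to the intron, was the 1 member that passed. It read 1408, 864.5 and 480.4 in wild type and 272, 328 and 369 in the others, fell by 1.36 (SE 0.34, adjusted p = 0.0431), and lost the call in 9 of 16 alternative settings (adjusted p up to 0.194). Sf3b6, the branch point protein p14, read 4959.5, 3509 and 4643 against 2267, 2576 and 3034, without overlap, and missed the threshold at -0.74 (SE 0.21, adjusted p = 0.0647). Sf3a2 read 3317, 2560.2 and 1450.3 against 1097, 849 and 1512, with a change of -1.05 (SE 0.32). Among the fits that left out 1 array it passed only without wild type array 3 (adjusted p = 0.00572). Sf3b1, the large scaffold subunit, differed by probe set: its brightest had -0.11 (SE 0.22), while a dimmer one read 273, 393 and 398 against 695, 1163 and 504, with every labelled double knockout array above the wild type and a change of 1.03 (SE 0.31, adjusted p = 0.0856). Sf3b2, with the brightest probe set of the class, was nearly level, at 5208, 4823 and 5162 against 4666, 4940.2 and 4861. Sf3b5, Sf3b3, Sf3a3 and Sf3a1 had -0.53, -0.51, -0.28 and -0.19.

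**Figure D4:**
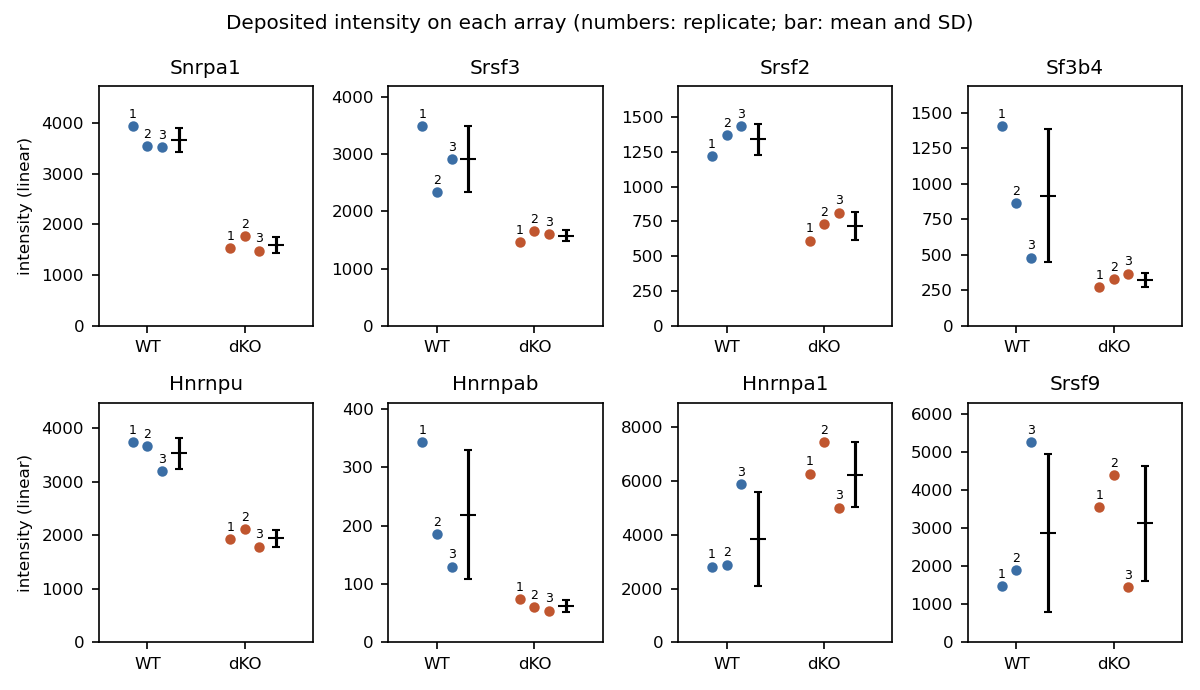
Deposited linear intensity (y axis) on each array for 8 genes, 1 probe set each, with wild type points in blue, labelled double knockout points in orange, replicate numbers beside the points, and bars for the mean and SD of 3 arrays. In the first 6 panels (Snrpa1, Srsf3, Srsf2, Sf3b4, Hnrnpu, Hnrnpab) no orange point reaches a blue one. In Hnrnpa1 wild type array 3 lies within the range of the labelled double knockouts. In Srsf9 wild type array 3 lies above them, and labelled double knockout array 3 lies near wild type arrays 1 and 2.

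Of 54 tested hnRNP probe sets 40 were lower and 2 passed, both lower (3.70%, near the 2.11% of all probe sets tested). Of 19 genes 12 were lower and 7 higher on the brightest probe set, and none passed. Hnrnpu, the scaffold attachment factor that links RNA to chromatin, read 3731, 3664 and 3191 against 1929, 2113 and 1788 on 1 probe set, which fell by 0.87 (SE 0.20, adjusted p = 0.0289). Its brighter probe set gave 5172, 4854 and 7379 against 5674, 6247 and 2747, where only labelled double knockout array 3 was low, and had a change of -0.33 (SE 0.29). Its 3 dim probe sets had -0.39, -0.32 and -0.73. The Hnrnpu call held in the fit without wild type array 3 and in none of the other 5 fits on 5 arrays, where its adjusted p reached 0.155.

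Hnrnpdl, a paralogue of the AU-rich element binder Hnrnpd, was lower on all 7 of its probe sets, with changes between -0.98 and -0.18, and none passed. Its brightest read 7918, 4565 and 6995 against 4175, 4249.9 and 3637.5, with no overlap (adjusted p = 0.106). Hnrnpd itself read 2523, 1054 and 417 in wild type and 473, 290.4 and 426 in the others, so wild type array 3 fell among the labelled double knockouts. Its change of -1.40 (SE 0.50) became -2.05 (SE 0.34, adjusted p = 0.00267) without that array. Hnrnpd passed in no other fit that left out 1 array. Hnrnpll, which drives the switch of CD45 to its short form in activated T cells, read 1752, 1774 and 973 against 997, 786 and 1177, with a change of -0.58 (SE 0.29), and passed only in the fit without wild type array 3 among those that left out 1 array (-0.87, SE 0.24, adjusted p = 0.0359).

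Hnrnpa1, a repressor of exon inclusion that counters Srsf1, had the highest change among the 52 genes. Its probe set of several related sequences read 2169.5, 2342 and 5854 in wild type and 8248, 8222 and 5538 in the labelled double knockouts, with a change of 1.20 (SE 0.34, adjusted p = 0.0645). A second bright probe set gave 2818, 2890.0 and 5879.7 against 6282, 7437 and 5013 and 0.74 (SE 0.28), and the third was dim. In both bright probe sets wild type array 3 lay within the range of the labelled double knockouts. Without it they rose by 1.64 (SE 0.21, adjusted p = 0.000635) and 1.08 (SE 0.20, adjusted p = 0.0056). Neither passed in any other fit that left out 1 array. This gene was singled out after its values were seen, and near-identical copies exist for it, so its probe sets may read more than 1 locus. The related Hnrnpa2b1 had 4 tested probe sets between -0.28 and 0.36, and Hnrnpa0 read 4357, 4174 and 4007 against 3085.5, 3447 and 3364 (-0.36, SE 0.18). Hnrnpc and Hnrnpk, also with bright probe sets, had -0.19 and 0.12, each less than 2 times its SE, and the other genes of the class lay between -0.63 and 0.42.

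In the last class, U2af2, the large subunit that binds the polypyrimidine tract, read 961, 629 and 584 against 356, 401 and 415 without overlap and missed the threshold (-0.85, SE 0.25, adjusted p = 0.0792). Among the fits that left out 1 array it passed only without wild type array 3 (adjusted p = 0.0221). Its partner U2af1, which reads the AG dinucleotide, had -0.21 (SE 0.26), with wild type array 3 highest at 7195. Ptbp1, the polypyrimidine tract repressor, read 249.8, 360.2 and 259.8 against 195, 143 and 194 on its brightest probe set (-0.67, SE 0.27) and had -0.14 and 0.23 on the others. Ptbp2, its neuronal paralogue, was dim, at 0.08 and -0.85.

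Khdrbs1 encodes SAM68, an RNA-binding target of Src family kinases that includes variable exons in activated T cells, and its probe sets disagreed more than those of any other gene of the list. One of them, of the kind that can read several sequences, read 5557, 3768 and 5941 in wild type and 396, 627 and 463 in the labelled double knockouts. It fell by 3.33 (SE 0.25, adjusted p = 3.88e-05), from 5089 ± 1159.7 to 495 ± 119, and kept its call in all 16 alternatives in which it was measured. The brightest Khdrbs1 probe set, of the same kind, gave 5656, 3888 and 6835 against 4966, 6993 and 3705, a change of -0.09 (SE 0.26). The other tested ones had -0.11, -0.37, -0.41 and 0.30, and none passed. The fall was thus seen in 1 of 6 tested probe sets.

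Srsf3 repeated this in milder form. A second probe set, listed with the same source sequence record as the brightest and of the several-sequence kind, read 3614, 2529.8 and 2705 against 748, 811 and 656.5. It fell by 1.98 (SE 0.22, adjusted p = 0.000534), against 0.88 on the brightest, and also kept its call in all 16 alternatives. Srsf3 probe sets of other records had -0.71, -0.79 and -0.48, each without overlap, and a dim one went the other way, at 24.2, 42.3 and 24.7 against 51.9, 91.2 and 43.5 (0.71, SE 0.29).

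Hnrnpab and Sf3b4 were the remaining genes whose probe sets disagreed, where disagreement means a probe set past the threshold beside another of opposite sign or more than 1 away on the log2 scale. For Hnrnpab, a relative of the AU-rich element binders, a dim probe set read 342, 185 and 129.7 against 73.8, 60.2 and 54.1 and fell by 1.50 (SE 0.32, adjusted p = 0.0197). The brightest, the brightest hnRNP probe set that stands for a gene, read 14623, 11582 and 17063.5 against 11753.5, 13685 and 11305 and had -0.24 (SE 0.17), a second -0.73 (SE 0.19, adjusted p = 0.0528), and a dim one had 0.50. The Hnrnpab call also held only without wild type array 3 among the fits on 5 arrays, its adjusted p reaching 0.0782. Sf3b4 had -0.31 (SE 0.30) on its other probe set. Differences between the changes of these probe sets, taken within each array, reached -3.24 between the called and the brightest Khdrbs1 probe sets and -1.10 between the called Srsf3 pair, each with a two-sided exact permutation p of 0.1, the smallest that 3 arrays against 3 allow. Of the 6 Hnrnpab pairs 3 had p of 0.3 or 0.4, and all pairs were chosen because the probe sets disagree. Of the 39 genes with at least 2 tested probe sets, 20 had all of them on 1 side of 0, and in 9 the changes spanned more than 1. The sources used here do not say where each probe set lies along its transcript.

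**Figure D5:**
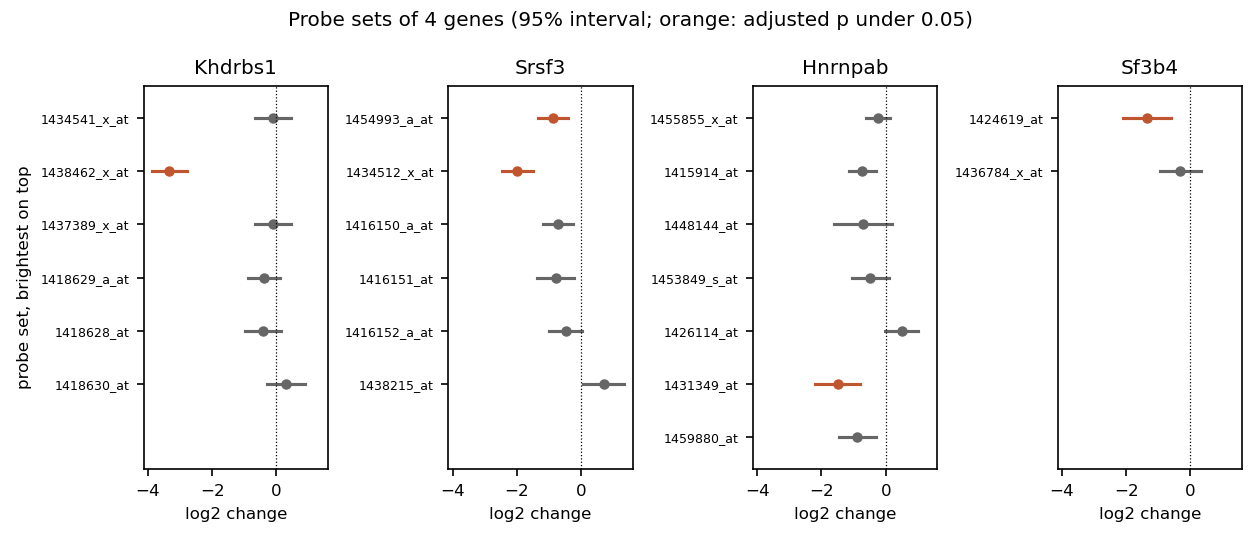
Log2 change with its 95% interval (x axis) for each tested probe set (y axis, brightest on top) of the 4 genes whose probe sets disagreed. Orange marks an adjusted p under 0.05. The called Khdrbs1 probe set lies at -3.33 while the other 5 lie between -0.41 and 0.30.

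By kind of probe set, 2 of 75 that read a single sequence passed, 2 of 32 of the kind that reads variants of 1 gene, 3 of 22 of the shared-transcript kind and 3 of 19 of the kind with cross-reacting probes. Medians were -0.28, -0.36, -0.54 and -0.31. The single-sequence share called lower, 2.67%, is near the 2.11% of all probe sets tested. Whole-array shares for each kind, and for the refit that follows, are not given here. With the last 2 kinds left out and the fit repeated, 5 of 107 were lower and none higher. Of the 16 probe sets annotated with several symbols, which include entries for Hnrnpa1, Hnrnpa3, Snrpa, Snrpd1, Snrpd2 and Snrpn, 13 were tested, 10 were lower and 1 passed, lower. The latter, annotated with Gm6793 and Hnrnpa3, read 1930.2, 1373 and 1042 against 744, 625 and 659.7 and fell by 1.06 (SE 0.26, adjusted p = 0.0407). A bright one shared by Hnrnpa1 and its copies read 2182, 2853 and 8102 against 8719, 10746 and 4780.5, again with wild type array 3 beside the labelled double knockouts. Its change was 1.03 (SE 0.43), and another of the same annotation had 0.98 (SE 0.38). The remaining one of that annotation, also bright, went the other way. It read 1735, 1561 and 3722 against 2273, 2172 and 1171, with a change of -0.28 (SE 0.35). These probe sets cannot be given to 1 gene.

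Other genes of the splicing pathway were read from a list of 177, of which 160 were named on the array and 156 tested. Of the 156, 96 were lower (median log2 change -0.14), 5 passed lower (3.21%) and 4 passed higher (2.56%). Among all genes tested 3.06% were called lower and 4.41% higher, so these shares are near or below the background and are no result about the list. The 9 genes are given for completeness. Wdr77, which with Prmt5 methylates Sm proteins before snRNP assembly, read 1465, 1546 and 1501 in wild type and 577, 486 and 558 in labelled double knockout arrays, and fell by 1.47 (SE 0.22, adjusted p = 0.0025). Lsm6 and Lsm3, of the U6 ring, fell by 1.12 (SE 0.27) and 0.94 (SE 0.24). Fubp1, a single-strand binder, fell by 1.09 (SE 0.25), and the hnRNP-like Raly fell by 1.17 (SE 0.29).

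Clk1, the nuclear SR kinase, read 355, 422 and 593 in wild type and 1078, 1078 and 728 in labelled double knockout arrays, and rose by 1.04 (SE 0.27, adjusted p = 0.0415). Srpk2, of the largely cytoplasmic SR kinases, read 199, 297 and 134 in wild type and 419, 531 and 442 in labelled double knockout arrays, and rose by 1.13 (SE 0.30, adjusted p = 0.0431). Of 9 tested SR protein kinase genes these 2 passed (22.2%, against 4.41% of all genes called higher) and none passed lower. The median change was 0.38, and 3 had changes below 0, Srpk3 at -0.56, Srpk1 at -0.48 and Prpf4b at -0.06. These kinases are a small part of the list above, so no result about them as a class is drawn. Celf2, a regulator of T cell splicing, rose by 0.89 (SE 0.21). The epithelial factor Esrp1 also passed, but at 1.87, 0.854 and 15.5 in wild type and 31.4, 32.8 and 39.0 in labelled double knockout arrays it lay below the brightest bacterial control on each wild type array and was testable only through the other group, so no size is given. None of 21 genes of the Prp19 complex and catalytic step passed (median 0.06), and none of 14 helicases did (median -0.17). Leaving out any 1 labelled double knockout array left 1 lower and 0 higher calls, and leaving out wild type array 3 gave 23 lower and 8 higher.

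Some markers of other cells differed between the groups as well. The 11 T lineage markers on the array, of 13 listed, summed to between 39677 and 51741 on the wild type arrays and to between 27908 and 29722.5 on the others. Among them only Ptcra passed in the fit without the level filter (-1.89, SE 0.21). Cd2 went the other way at 0.98, and Cd3d and Gata3 were nearly level at -0.08 and -0.02. The remaining T lineage markers lay between -1.59 and -0.43 and did not pass. The 4 NK markers on the array, of 5, summed to between 355 and 575 against 1951 to 3609. That difference rests on Nkg7 (2.96, SE 0.30) and Klrd1 (1.82, SE 0.30), which passed in the same fit. Prf1 had 0.35 (SE 0.30) and did not pass, and Ncr1 lay at or below the brightest bacterial control on each array. The 7 B cell markers, of 8, gave 1007 to 1676 against 2109 to 2354, a difference that rests on Cd79b (571 to 1081 against 1782 to 1922), while Cd79a, Cd22, Ms4a1, Blnk and Pax5 had changes between -0.61 and -0.02 and did not pass. The 9 mitosis markers, of 10, gave 9471 to 13780 against 9297 to 10309, and none passed. Cdc20, at 6511.5, made up most of the sum on wild type array 3. That array was lowest of the 6 in Mki67, Kif11, Top2a, Plk1, Bub1, Aurka and Aurkb, but not in Ccnb2 or Cdc20. Mki67 read 2736, 1427 and 330 in wild type and 833, 739 and 845 in the others. Top2a read 2477, 2294 and 638 against 1264, 1569 and 1530. Granulocyte, macrophage, erythroid and stromal sums overlapped as well. Of the coreceptors that a double negative sort should remove, Cd4 read between 3.15 and 6.08, below the brightest bacterial control on each array, while Cd8a read between 68.5 and 197 and Cd8b1 between 65.9 and 137, above it on all 6. The part of these cells in the splicing factor changes was not tested, and fewer cells of a type and less RNA per cell cannot be told apart.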

How the data were processed

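Deposited values are linear intensities from the authors' value table of 6 single-colour Affymetrix-type arrays, already scaled to a common trimmed mean; the scaling is read from the values, and the sources used here do not state the method. From these intensities, log2(intensity + 16) was taken, each array was centred on its median, control probe sets were left out, and probe sets under the 40th percentile of mean level were not tested. limma 3.58.1 in R 4.3.3 (lmFit, eBayes with an intensity trend) compared the 3 arrays labelled double knockout with the 3 labelled wild type over 27022 probe sets, with Benjamini-Hochberg adjustment over all of them and a threshold of 0.05. A gene was read from its brightest tested probe set, over 13187 genes. Adjusted p-values printed for members are those over probe sets, and those of the other splicing genes are over genes. Log2 changes are on the offset scale, which understates changes of dim probe sets, and the number of arrays limits the precision. Replicate numbers did not pair the arrays, so no block was used.

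Members, classes and the list of other splicing genes were chosen with earlier results of these data known. Values by array were given, by rule, for genes with a probe set past the threshold and, in each class, for the pair of genes of smallest p and the brightest gene; Srsf9, Srsf10, Snrpc, Snrpd3, Sf3a2, Sf3b1, Hnrnpll, Hnrnpa0 and Hnrnpa1 were added after their values were seen. Genes were named from the platform annotation, updated through RefSeq; 34945 probe sets had 1 symbol, 932 several and 9160 none. In simulated data with 200 of 27022 probe sets changed, none was recovered at a log2 change of 1 and 65.5% at 2. The arrays themselves gave 787 higher and 571 lower calls, more than the 200 changed in the simulation. The adjusted threshold was therefore stricter in the simulation, and its recovery does not measure that of these data. Alternatives tried were other offsets, filters, normalizations, array weights, no trend, the median of a gene's probe sets in place of the brightest, the replicate block and leaving out each array.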

Additional observations from a re-analysis of the deposited data

How the results depend on the processing

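Lower calls always outnumbered higher ones among splicing factors, but their number depended on the setting. The comparison gave 0 higher and 10 lower probe sets, 0 higher and 4 lower genes, and a median of -0.34. Quantile normalization gave 1 probe set higher. An offset of 1 gave a median of -0.39 and 1 other splicing gene higher, and an offset of 64 gave a median of -0.27 and 1 gene higher. Without the intensity trend, 6 probe sets were lower and 2 other splicing genes higher. Array weights gave 29 probe sets lower and 3 higher, 10 genes lower and 1 higher, a median of -0.38, and 17 lower and 9 higher among other splicing genes. Calls over all probe sets tested moved with the setting too. They were 787 higher and 571 lower in the main comparison. An offset of 1 gave 606 and 449, and an offset of 64 gave 881 and 616. The whole-array count under array weights is not given here, so its member counts stand without a background. Without the cross-reacting and shared-transcript kinds 5 probe sets were lower. Among bright probe sets, an alternative chosen after seeing the data, 2 other splicing genes were lower and 1 higher. The cause of these moves was not tested.

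With the replicate number as a block, 4 probe sets and 1 gene were lower, and among other splicing genes 1 was lower and 0 higher. Arrays of the same number did not deviate together (correlations -0.0467, -0.133 and -0.291). Between arrays of different number in the 2 groups, correlations ran from -0.185 to 0.255. The highest were wild type array 3 with labelled double knockout array 2 (0.255) and wild type array 1 with labelled double knockout array 3 (0.237). The cause of these was not tested.

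Leaving out 1 array at a time gave 2 to 24 probe sets lower and 0 to 4 higher, 1 to 11 genes lower and 0 to 1 higher, a median from -0.37 to -0.31, and 1 to 23 other splicing genes lower and 0 to 8 higher. The upper ends came without wild type array 3. No called probe set changed sign, but 4 named probe sets that missed the threshold did. Under quantile normalization the brightest probe sets of Sf3b2, Snrpg and Khdrbs1 stood at 0.0053, -0.0047 and 0.011, and under array weights that of Khdrbs1 at 0.038. With 1 array left out, Srsf1 ran from -0.51 to 0.062, Khdrbs1 from -0.30 to 0.13 and Snrpg from -0.049 to 0.21. Of 160 comparisons of a called probe set with an alternative, 116 kept the call and 44 lost it. With 3 arrays a group, a probe set that did not pass may still differ. The 0% recovery of a log2 change of 1 came from simulated data with fewer changed probe sets. Its adjusted threshold was stricter, so it does not measure the recovery in these data.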
